A study of Rattus norvegicus with 4 samples.

Results

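This account compares 2 arrays, 1 of the hippocampal CA3 area after kainic acid (KA) and 1 after the phosphate-buffered saline vehicle (PBS), out of the 4 arrays of the series. The animals were Sprague-Dawley rats, an outbred strain, and all 4 groups had an injection into the hippocampus and were sampled 24 h later. The PBS group had the vehicle, the KA group had KA, the NAP group had the peptide NAP, and the KA+NAP group had both agents. The PBS and KA groups had no NAP, and the labels give no age, sex, KA dose, count of animals or pooling. The series text names CA3 as the area taken, while the sample labels speak only of whole hippocampi, so the dissection was checked against region markers. A gene was taken from its brightest probe set, as the MAS5 intensity (the array software's summary of a probe set, in arbitrary units). The comparison covers 9490 of the 14218 named genes, those with a mean intensity over the 4 arrays above 62.75. Differences are log2(intensity + 10) on KA minus PBS, a scale that understates those of dim genes. Each group had 1 array, so no value carries a replicate error, no test was possible, and 2-fold (a log2 difference of 1) is a fixed rule of size.

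KA is an agonist of kainate-type glutamate receptors. CA3 pyramidal neurons carry many of these receptors, receive strong mossy fibre input and excite each other through recurrent axons, which makes them prone to seizure discharge and excitotoxic death. In rodents the injury is followed by a reaction of astrocytes and microglia, entry of blood-derived cells, and altered transcription of neuropeptides, growth factors and stress proteins in surviving neurons.

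At the 2-fold rule more genes were higher than lower on the KA array. At least 2-fold higher were 466 genes, 4.91% of the 9490, and 227 were at least 2-fold lower, 2.39% of them. The median over all 9490 genes was 0.02, with 4950 above 0 and 4483 below. At 4-fold there were 95 higher and 23 lower genes, and at 8-fold 28 higher and 2 lower. Of the higher genes, 168 (36.1%) had a PBS intensity at or below the filter's threshold, against 4.07% of all genes, so they passed it through the other arrays. Among the 1297 genes with a PBS intensity of 100 or less, 19.2% were 2-fold higher and 0.771% were 2-fold lower. Among the 6284 genes from 101 to 1000, 203 (3.23%) were higher and 176 (2.8%) lower. Among the 1909 genes above 1000, 0.733% were higher and 2.15% lower, and the median was −0.10. A gene can hardly lie lower on KA and still pass the filter when it starts dim, so these shares describe the filter as well as the arrays. Members at or below the threshold with PBS numbered 9 of 24 in the microglia and macrophage list described below, 7 of 25 in AP-1, 7 of 27 in matrix, 6 of 20 in interleukin 1 and tumour necrosis factor signalling, 5 of 11 in chemokines, and 4 of 19 each in reactive astrocyte genes and S100 proteins and annexins.

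**Figure D1:**
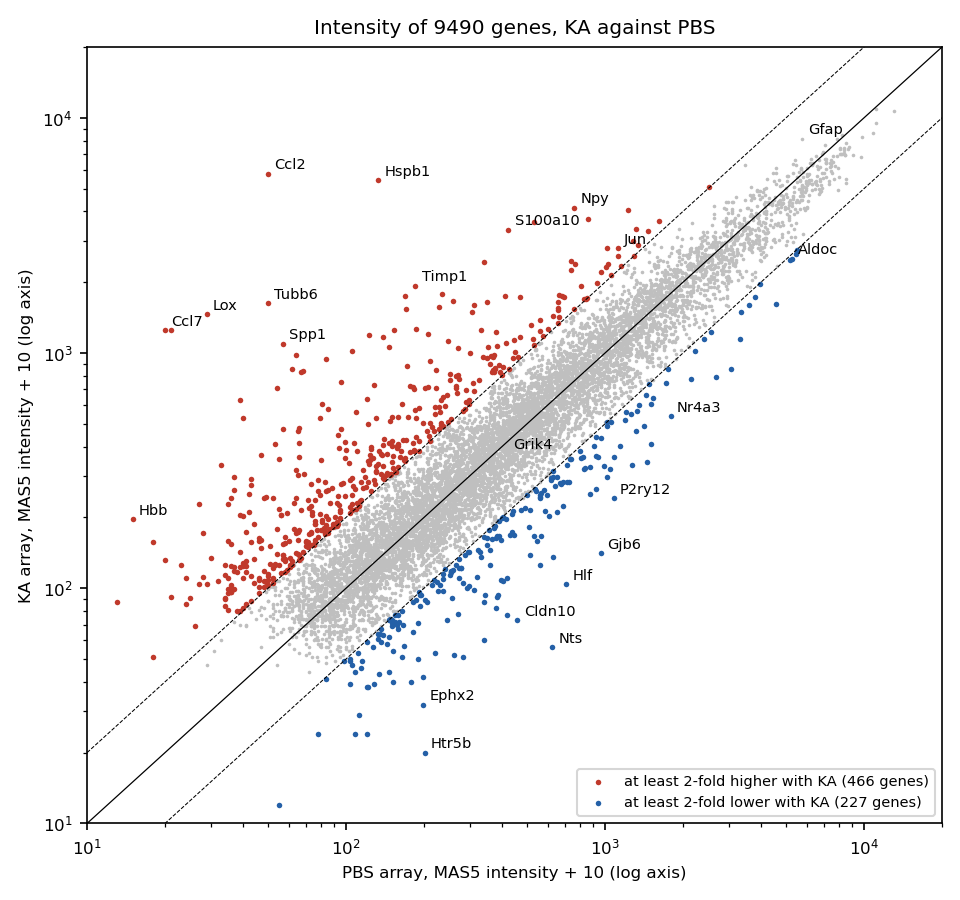
Intensity of each of the 9490 genes past the filter on the PBS array (horizontal) and the KA array (vertical), both as MAS5 intensity + 10 on log axes, with a solid line of equal intensity and dashed lines at 2-fold. The 466 red genes include 249 at a PBS intensity of 100 or less, and the 227 blue genes spread along it, from Plac9 at 45 to Crym at 5522.

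Both arrays without KA bear on these sizes. The NAP array differed from PBS by 2-fold at 100 higher genes (1.05%) and 23 lower genes (0.242%), and the middle 95% of genes lay between −0.53 and 0.70. The middle 95% in KA minus PBS lay between −0.99 and 1.37. With the NAP array in place of PBS, 302 genes were at least 2-fold higher (3.18%) and 240 lower (2.53%). Against both arrays at once, KA was at least 2-fold higher at 240 genes and lower at 139. Markers of other tissue differed between the 2 arrays without KA. Haemoglobin beta (Hbb) was at 5 with PBS, 186 with KA, 1430 with NAP and 1549 with KA+NAP. Of 16 meningeal and fibroblast markers, 11 were at least 2-fold higher with NAP than with PBS. Their summed intensity was 3509 with PBS, 3470 with KA, 4397 with KA+NAP and 7418 with NAP. The 3′ to 5′ ratio of the beta-actin controls, a measure of RNA length, was 14.1 with PBS, 11.4 with KA, 15.5 with KA+NAP and 7.92 with NAP. The parts of tissue makeup and RNA quality in the gene differences were not tested.

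The highest difference belonged to a chemokine and the next ones to a second chemokine, a neuropeptide precursor, a matrix enzyme, a small heat shock protein and a tubulin. Ccl2, which draws monocytes, was at 40 with PBS and 181 with NAP, and at 5786 with KA and 5291 with KA+NAP. Its log2 difference was 6.86. Trh, the precursor of thyrotropin-releasing hormone, was at 11 and 29 without KA and at 1242 and 1335 with it (5.90 against PBS). Hspb1, a small heat shock protein, was at 123 with PBS and 5423 with KA. NAP alone had 550 for Hspb1, above PBS. Tubb6, a beta tubulin isotype, was at 40 and 128 without KA and at 1616 and 1923 with it. For each of these 4 genes both KA arrays lay above both arrays without KA. Lox, which cross-links collagen, was at 19 with PBS and 1458 with KA but at 332 with KA+NAP. Rprm, a p53-induced cell cycle inhibitor, was at 54, 975 and 194 on the PBS, KA and KA+NAP arrays. Cbln1, a synaptic organiser, was at 30 with PBS and 521 with KA, while the NAP and KA+NAP arrays stood at 82 and 85. Lox and Rprm were lower on the KA+NAP than on the KA array but above both others, and Cbln1 was high on the KA array alone. The rest of the 25 highest were Ccl7, Spp1, Sdc1, Tcim, Cd44, Hbb, Flnc, Tnfrsf12a, Tnc, Timp1, Fbln2, Fam167a, Emp1, Lgals3, Inhba, Fstl3, Maff and Adamts1, with differences from 3.08 for Adamts1 and Maff to 5.96 for Ccl7.

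At the low end stood a neuropeptide, a serotonin receptor, astrocyte junction genes and metabolic enzymes. Nts, the neurotensin precursor, was at 616 with PBS, 360 with NAP and 483 with KA+NAP, but at 46 with KA (−3.48). Htr5b, a serotonin receptor, was at 191, 97 and 67 on those arrays and at 10 with KA (−3.33). Nts was low on 1 of the 2 arrays with KA. Gjb6, the astrocyte gap junction protein connexin 30, was at 956 and 1007 without KA and at 131 and 186 with it (−2.78). Cldn10, a tight junction protein, was at 449 and 411 against 63 and 119. Sncg, gamma-synuclein of axons, was at 409 and 363 against 67 and 61. In these 3 genes both KA arrays lay below both others. Aifm3, a mitochondrial flavoprotein, differed by −2.32, Rasd2, a striatum-enriched small GTPase, by −2.16, Akap5, which anchors protein kinase A at synapses, by −2.05, and Acss1, the mitochondrial acetyl-CoA synthetase, by −2.06. Car3, a carbonic anhydrase of fat and muscle, was at 617 with PBS and 455 with KA+NAP, and at 126 with KA and 67 with NAP. Nkain4, Dipk1c, Siglec5 and C19h16orf74 lay between −2.24 and −1.95. Plac9 was at 45 with PBS and 2 with KA, below the pseudocount.

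**Figure D2:**
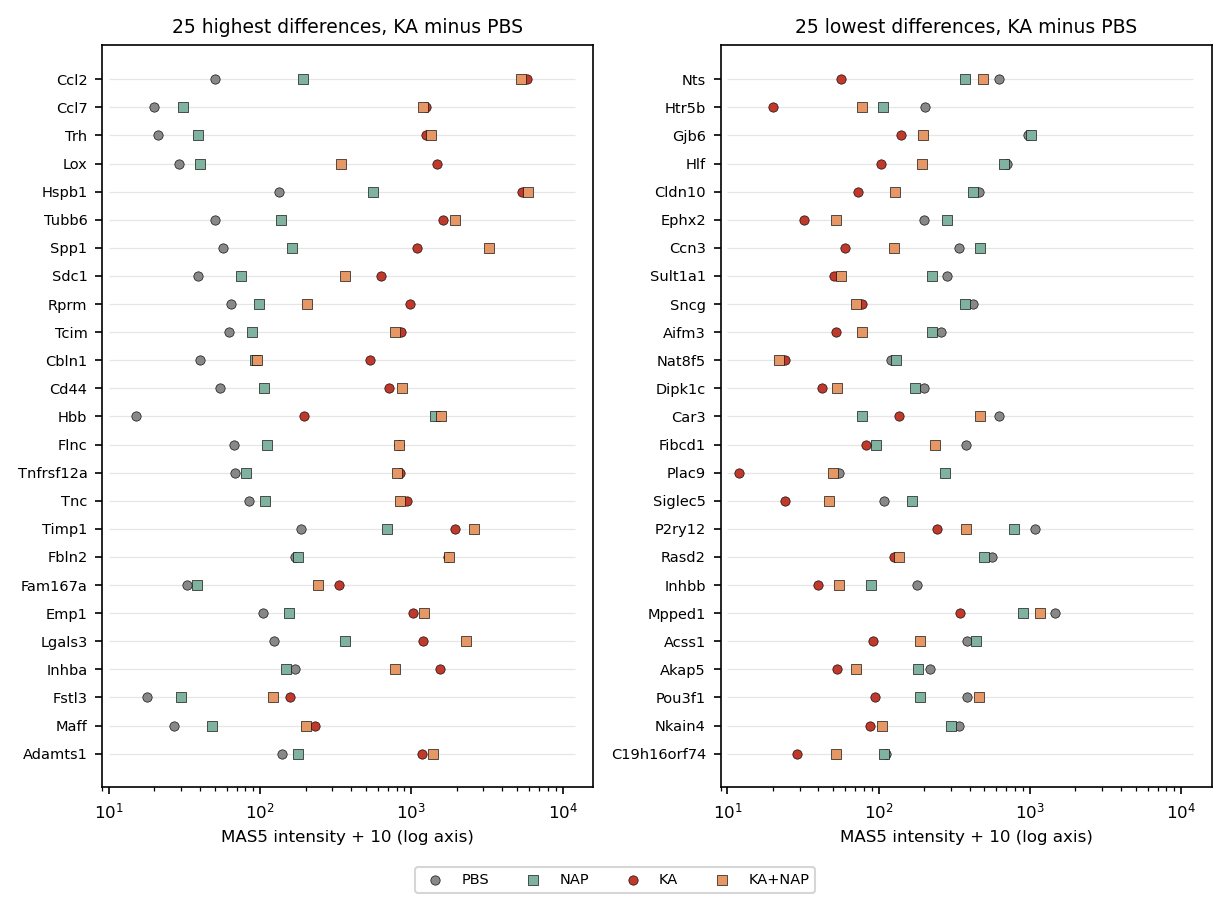
The 25 genes with the highest (left) and the 25 with the lowest (right) log2 difference KA minus PBS, each with its MAS5 intensity + 10 on the 4 arrays (log axis; circles without NAP, squares with NAP, red and orange with KA). For Ccl2, Trh and Tubb6 both KA symbols lie to the right of both others, while Cbln1, Nts and Mpped1 have 1 KA symbol apart from the rest.

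Few chemokine transcripts were measurable, and 2 of them carried very large differences. Chemokines guide leukocytes, and 11 of the 28 on the array passed the filter. Of these, 4 were at least 2-fold higher (Ccl2, Ccl7, Cxcl1 and Ccl3) and 2 lower (Cxcl13 and Cxcl12), with a median of 0.37. Ccl7, a monocyte attractant, was at 10 with PBS and 21 with NAP, against 1239 and 1189 with KA and KA+NAP. Cxcl1, a neutrophil attractant, was at 19 with PBS and 94 with KA (1.84), and Ccl3 was at 25 and 85 (1.44). Cxcl12, which neurons, meninges and vessels make and which retains leukocytes, was at 1711 with PBS and 739 with KA (−1.20). Of 26 cytokine genes on the array only 8 passed, none at 2-fold, with Il18 at 0.88, the glial survival factor Cntf at 0.83 and Il34, a neuronal ligand of the microglial Csf1r, at −0.60. The genes for interleukin 1 beta, interleukin 6 and tumour necrosis factor (Il1b, Il6, Tnf) were among the 18 that did not pass.

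Receptors and intracellular relays of these signals were measurable in larger number. Of 20 genes of interleukin 1, tumour necrosis factor and Toll signalling, 7 (35%) were at least 2-fold higher and none lower, with a median of 0.68. Tnfrsf12a, the TWEAK receptor, was at 58 and 71 without KA and at 830 and 800 with it. Cd14, the lipopolysaccharide co-receptor, was at 69 with PBS and 517 with KA. Il1r1, the signalling receptor of interleukin 1, was at 68 and 249 (1.73), its co-receptor Il1rap at 1.23, the kinase Ripk1 at 1.28, the receptor Tnfrsf1a at 85 and 206, and Ltbr at 1.14. In the interleukin 6 family pathway 3 of 15 genes were at least 2-fold higher. Stat3, the transcription factor that conveys these receptors' signal, was at 238 with PBS, 368 with NAP, 1112 with KA and 1162 with KA+NAP. Cebpd, an inflammatory transcription factor, was at 115 and 388 (1.67) and the kinase Jak2 at 109 and 260 (1.18). Of both lists, Tnfrsf12a, Cd14 and Stat3 were at least 4-fold higher. In prostaglandin metabolism 4 of 12 genes were at least 2-fold higher. Ptgs2 (cyclooxygenase 2, induced by activity and inflammation) was at 1449 with PBS, 3293 with KA, 1759 with KA+NAP and 970 with NAP. Pla2g4a, which releases arachidonic acid, differed by 1.11, the prostaglandin-degrading Hpgd by 1.01 and the prostaglandin E receptor Ptger3 by 1.62 (63 to 214). None of these 4 reached 2-fold in KA+NAP minus NAP, where Ptger3 was at −0.40. In that comparison 5.66% of the 9490 genes passed 2-fold upward and 2.41% downward.

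AP-1 transcription factors, dimers of Fos and Jun proteins, and related stress factors had many members high on the KA array, and Egr and Nr4a factors did not. In the list of AP-1, Atf3 and Myc factors 12 of 25 (48%) were at least 2-fold higher and 2 lower, with a median of 0.98. Maff, a small Maf partner, was at 17 with PBS, 38 with NAP, 219 with KA and 190 with KA+NAP. Atf3, a stress-induced partner of Jun, was at 18 and 16 without KA and at 161 and 178 with it. Fos was at 295 and 379 against 1477 and 1760. Jun itself was at 1111 with PBS and 2778 with KA (1.31). The growth regulator Myc was at 54 and 308, whereas its relatives Mycl and Mycn were lower, at −1.42 and −1.08. Fosl1 (2.17), Ier2 (1.89), Ier3 (1.42), Runx1 (1.24), Klf6 (1.18), Nfil3 (1.51) and Atf4 (1280 to 2576) were also at 2-fold. Among Egr, Nr4a, Arc and other activity genes 3 of 19 were higher and 2 lower, with a median of 0.03. The higher ones were Gadd45g (71 to 599), Gadd45b (120 to 521) and Rgs4, a brake on G protein signalling (731 to 2238). The lower ones were the orphan nuclear receptors Nr4a3 (1781 to 528) and Nr4a2 (249 to 109). Egr1 was at 1623 with PBS and 869 with KA (−0.89), and Arc, which acts in synaptic plasticity, at 288 and 168 (−0.74). Feedback inhibitors and other genes tied to the MAP kinase pathway were little apart: 1 of 15, Spry1 at 1.01, reached 2-fold, with Dusp2 at 0.86. The transcription factor Etv1 of this list, also on the list of CA1 markers described below, was at −0.88.

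Promoter sequence was examined for these factors' motifs because many AP-1 genes were high. RefSeq promoter windows (build GRCr8, the 250 bases before the gene's start) were matched by symbol for 7961 of the 9490 genes. The AP-1 motif TGANTCA was in 312 of these (3.92%), in 25 of 384 windows of genes at least 2-fold higher (6.51%) and in 6 of 172 windows of genes at least 2-fold lower (3.49%). Of all 27457 windows in the table, 6.36% held it. Among genes at least 4-fold higher, 7 of 73 windows held it (9.59%), as did 1 of 15 among genes at least 4-fold lower (6.67%). Of the same 73 windows 11 (15.1%) held the C/EBP motif. That motif, TTGCNNAA, was in 7.12% of all 7961, 9.11% of higher and 10.5% of lower windows. The CRE TGACGTCA was in 3.22%, 4.17% and 2.91%, and the STAT motif TTCNNNGAA in 5.74%, 5.73% and 4.65%. The Egr motif was in 1.06% of all 7961, 1.82% of higher and 1.74% of lower windows. Both strands were searched, a window with several matches counted once, and a match is a match of letters only. The windows below are shown because they carry AP-1 motifs in genes at opposite ends of the comparison, or CRE and Egr motifs in the highest AP-1 partner. They run 5′ to 3′ on the gene's strand and end just before its start. Capitals mark AP-1 motifs, except in Maff, where they mark an Egr motif (GCGTGGGCG) and then a CRE.
Ccl7, chr10:67513845-67514094, + strand: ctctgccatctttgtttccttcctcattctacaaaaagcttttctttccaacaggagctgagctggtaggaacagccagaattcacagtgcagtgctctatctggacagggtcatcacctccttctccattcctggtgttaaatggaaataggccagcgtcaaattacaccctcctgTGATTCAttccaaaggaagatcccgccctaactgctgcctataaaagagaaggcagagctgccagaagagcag
Emp1, chr4:169943980-169944229, + strand: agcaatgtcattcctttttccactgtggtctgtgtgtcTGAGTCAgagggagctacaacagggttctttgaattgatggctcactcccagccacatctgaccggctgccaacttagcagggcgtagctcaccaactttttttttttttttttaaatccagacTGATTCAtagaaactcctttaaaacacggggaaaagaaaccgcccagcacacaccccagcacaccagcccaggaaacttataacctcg
Anxa2, chr8:78986002-78986251, + strand: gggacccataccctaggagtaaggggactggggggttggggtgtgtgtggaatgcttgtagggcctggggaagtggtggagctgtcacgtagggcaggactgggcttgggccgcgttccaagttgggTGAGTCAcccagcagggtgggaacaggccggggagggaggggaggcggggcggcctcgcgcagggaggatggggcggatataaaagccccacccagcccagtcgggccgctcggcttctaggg
Maff, chr7:112792537-112792786, + strand: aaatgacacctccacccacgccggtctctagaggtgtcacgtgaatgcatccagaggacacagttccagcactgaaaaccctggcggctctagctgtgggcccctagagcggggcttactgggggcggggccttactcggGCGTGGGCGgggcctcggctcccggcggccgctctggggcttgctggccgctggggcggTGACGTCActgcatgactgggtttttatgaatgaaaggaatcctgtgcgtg
Nts, chr7:39460889-39461138, − strand: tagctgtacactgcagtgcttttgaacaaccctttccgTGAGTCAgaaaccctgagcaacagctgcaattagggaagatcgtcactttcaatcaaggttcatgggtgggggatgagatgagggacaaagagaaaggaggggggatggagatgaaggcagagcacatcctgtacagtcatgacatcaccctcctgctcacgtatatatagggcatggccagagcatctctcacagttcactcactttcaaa
Ccl7 has 1 AP-1 motif, 73 to 67 bases before its start, and Emp1 has 2, at 212 to 206 and 88 to 82 bases before. Emp1, an epithelial membrane protein of reactive astrocytes, was at 95 with PBS and 1013 with KA, and Anxa2 at 201 and 911. Nts has the motif 212 to 206 bases before its start and was the lowest gene of the comparison. Of the genes of this comparison, the promoter table gave no window for Ccl2, Lox or Hlf.

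Neuropeptide precursors lay at both extremes. Of 25 measured, 9 (36%) were at least 2-fold higher and 1 lower, and the median was 0.03. Besides Trh, the inhibitory peptide Npy was at 749 with PBS, 838 with NAP, 4142 with KA and 1868 with KA+NAP. The enkephalin precursor Penk was at 341, 358, 1635 and 429 on the same arrays, high with KA alone. Gal, galanin, was at 89 with PBS and 410 with KA (2.08) and 504 with KA+NAP. Tac1, the substance P precursor, differed by 1.87, the granin Vgf by 1.32, the nociceptin precursor Pnoc by 1.27 and Pdyn, the dynorphin precursor, by 1.02 (1146 to 2330). Calca, the precursor of calcitonin gene-related peptide, was at 82 and 174. Nts was the only lower one at 2-fold. Growth factors were mixed, with 4 of 24 higher, 1 lower and a median of −0.34. Hbegf, a ligand of the epidermal growth factor receptor, was at 55 and 60 without KA and at 455 and 427 with it. Fgf2 (48 to 120), Fgf1 (40 to 93) and Bdnf (655 to 1412) were the other three at 2-fold, and Igfbp5, which binds insulin-like growth factors, was lower (156 to 60). Bdnf, a neurotrophin, was at 642 with NAP and 594 with KA+NAP, so it was high on the KA array alone. In the activin and TGF-beta pathway the ligand and its inhibitor were both high. Inhba, the activin A subunit, was at 160 with PBS, 138 with NAP, 1534 with KA and 767 with KA+NAP. Fstl3, which binds activin, was at 8 and 147 with PBS and KA. Acvr1c, an activin-type receptor, was at 86 and 84 without KA, 464 with KA and 79 with KA+NAP. Inhbb, the activin B subunit, was at 168 with PBS and 30 with KA (−2.15). No other of the 23 genes of the pathway reached 2-fold, and their median was 0.40.

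Astrocyte genes separated by state. Reactive astrocyte genes, the set known to be induced in injury, had 13 of 19 (68.4%) at least 2-fold higher and 1 lower, with a median of 2.18. All 13 were also at least 2-fold higher in KA+NAP minus NAP. The lower one was Gpc4, a glypican that promotes synapse formation, at −1.16. Cd44, the hyaluronan receptor, was at 44 and 96 without KA and at 700 and 860 with it. Timp1, a metalloproteinase inhibitor, was at 175 with PBS, 680 with NAP, 1924 with KA and 2589 with KA+NAP. Vim, an intermediate filament protein, was at 851 and 3688 with PBS and KA, and Nes, another, at 55 and 292. Gfap was at 5744 with PBS, 8147 with KA, 9776 with KA+NAP and 8065 with NAP, so the NAP and KA arrays were nearly level. The list's median in NAP minus PBS was 0.61. Homeostatic astrocyte genes had the opposite sign. None of 26 was 2-fold higher, 4 were lower (15.4%), 2 lay above 0 and the median was −0.68. Besides Gjb6 and Cldn10, the glycolytic enzyme Aldoc was at 5266 and 2511, the mitochondrial carrier Slc25a18 at 405 and 186, and the folate enzyme Aldh1l1 at 369 and 181 (−0.99). Connexin 43 (Gja1), the other astrocyte connexin, was at 8491 and 5250 (−0.69). The glutamate transporters Slc1a2 (139 and 138) and Slc1a3 (6015 and 5641), glutamine synthetase (Glul, −0.18) and the water channel Aqp4 (4087 and 4274) differed little. In such tissue samples fewer cells of a type and less RNA per cell cannot be told apart.

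Phagocyte genes were higher on the KA array than with PBS, and by the median of their list level with the NAP array. Of 24 microglia and macrophage markers 10 (41.7%) were at least 2-fold higher than PBS and none lower, with a median of 0.85. Against the NAP array 2 were higher and the median was 0.07. Lgals3, a lectin of activated phagocytes, was at 113 with PBS, 353 with NAP, 1185 with KA and 2299 with KA+NAP. Gpnmb, a lysosomal glycoprotein, was at 225, 1073, 1771 and 3410 on those arrays, and the beta-glucan receptor Clec7a at 10, 92, 122 and 559. Fcgr2b, an inhibitory Fc receptor, was at 70 and 340 with PBS and KA. The lysosomal marker Cd68 was at 24 and 74, and Aif1, a microglial calcium-binding protein, at 203 and 219. The list's summed intensity was 15572 with PBS, 17651 with KA, 19854 with NAP and 29570 with KA+NAP. Of 11 homeostatic microglia genes 3 were at least 2-fold lower than PBS and none higher, and the median was −0.32. In KA+NAP minus NAP their median was 0.01, with 6 above and 5 below 0. P2ry12, the receptor that senses ATP from damaged cells, was at 1071 and 773 without KA and at 232 and 368 with it. Tmem119 was at 289 and 253 against 92 and 144, and Gpr34 at 217 and 173 against 87 and 145. In each of these 3 genes both KA arrays were below both others.

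Markers of cells from blood were dim. Of 27 on the array 10 passed the filter, and 5 of these were at or below its threshold with PBS. The neutrophil proteins S100a9 and S100a8 were at 13 and 16 with PBS and at 116 and 59 with KA. Mmp9, a gelatinase of neutrophils and neurons, was at 39 with PBS, 36 with NAP, 233 with KA and 159 with KA+NAP. Lcp1, an actin bundler of leukocytes, differed by 1.49, and 6 of the 10 were at least 2-fold higher. Against the NAP array 1 of the 10 was at least 2-fold higher, with a median of 0.51, and Lcp1 was at 0.40. NAP alone was at least 2-fold above PBS at 3 of the 10, with a median of 0.70. Of 16 antigen presentation genes none reached 2-fold in KA minus PBS, with the proteasome activator Psme1 at 0.94 and the invariant chain Cd74 at 0.91. The same list had 7 at least 2-fold higher in KA+NAP minus NAP. In the complement list 1 of 13 was 2-fold higher, the anaphylatoxin receptor C5ar1 at 1.05, C3 was at 116 and 196 and C1qa at 711 and 432. Against the NAP array C5ar1 stood at −0.06, C3 at −0.84 and C1qa at −0.24. Interferon response genes had 2 of 24 at least 2-fold higher, the membrane antiviral protein Ifitm1 (30 to 192) and the myeloid factor Irf8 (61 to 142), and a median of 0.09. Against the NAP array Ifitm1 stood at 0.27 and Irf8 at 0.56. There 1 of the 24 was at least 2-fold higher, Irf9 at 1.45.

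**Figure D3:**
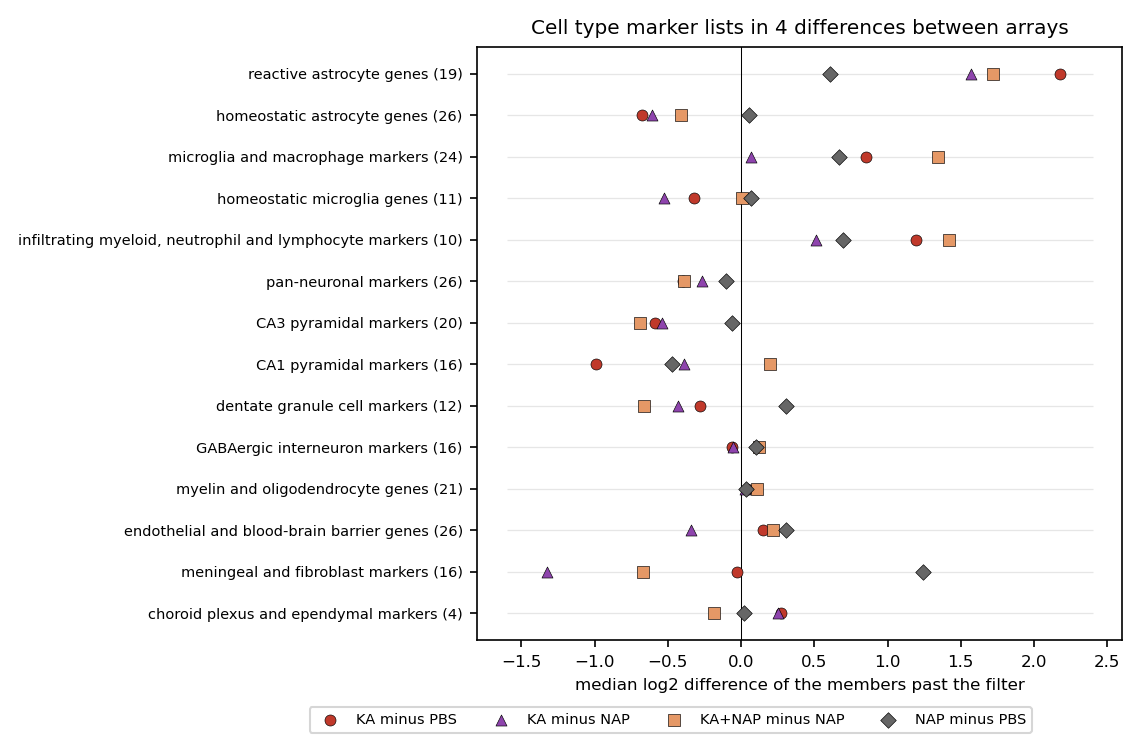
Median log2 difference of the members past the filter (number in brackets) for 14 cell type marker lists, in KA minus PBS (red circles), KA minus NAP (purple triangles), KA+NAP minus NAP (orange squares) and NAP minus PBS (grey diamonds), each from single arrays. Reactive astrocyte genes lie at 2.18 in KA minus PBS and at 1.57 in KA minus NAP, whereas microglia and macrophage markers lie at 0.85 and 0.07.

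Several matrix proteins and matrix enzymes had large differences. Of 27 matrix and CD44 ligand genes 12 (44.4%) were at least 2-fold higher and 1, the proteoglycan Dcn, lower (247 to 81). Spp1, osteopontin, was at 47 with PBS, 153 with NAP, 1087 with KA and 3248 with KA+NAP. Sdc1, a heparan sulphate proteoglycan, was at 29, 65, 621 and 355. Tnc, tenascin C of injured tissue, was at 74 and 97 without KA and at 933 and 828 with it, and Fbln2, fibulin 2, at 159 and 168 against 1738 and 1774. Tgfbi (86 to 746), Col6a3 (37 to 358) and Fn1, fibronectin (290 to 994), were also at least 2-fold higher. Fibrillar collagens of fibroblasts did not share this, with Col1a2 at 75 on both arrays and Col3a1 at 80 and 74. Among proteases and inhibitors 7 of 26 (26.9%) were higher and 1 lower. Adamts1, which cleaves proteoglycans, was at 129 and 168 without KA and at 1162 and 1390 with it. Plau, urokinase, was at 25 and 218 with PBS and KA, Adamts9 at 29 and 194, and Plat, the tissue plasminogen activator, at 367 and 850. Timp4, an inhibitor enriched in astrocytes, was lower (264 to 100) while Timp1 was higher. Integrins and laminins had 2 of 24 at 2-fold, Itgb1 (796 to 1914) and Lama4 (42 to 95).

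A larger share of actin-binding genes than of microtubule genes was at least 2-fold higher, while over all 9490 genes it was 4.91%. Of 40 actin-binding genes 15 (37.5%) were at least 2-fold higher and none lower, with a median of 0.74. Flnc, filamin C, was at 57 and 101 without KA and at 820 and 821 with it. Tagln, transgelin, was at 136 with PBS and 1048 with KA, its relative Tagln2 at 118 and 723, and Msn, moesin, which links actin to the membrane, at 218 and 1556. Among S100 proteins and annexins, calcium-binding proteins of membranes and cytoskeleton, 10 of 19 (52.6%) were higher and none lower, and all 10 were at 2-fold in KA+NAP minus NAP as well. Against the NAP array 4 of the 19 were at least 2-fold higher and the median was 0.53, while in NAP minus PBS it was 0.47. S100a10, the partner of Anxa2, was at 413 and 504 without KA and at 3335 and 4475 with it, and S100a3 at 56 and 470 with PBS and KA. Of 10 tubulins Tubb6 was the 1 at 2-fold (10%). Tubb4a, of neurons and oligodendrocytes, was at 707 and 391 (−0.84), Tuba8 at −0.43 and Tubg1 at 0.43. Microtubule-associated genes had 2 of 30 (6.67%) at least 2-fold higher, Dpysl3 (46 to 194) and Dclk1 (2504 to 5075), both of growing neurites, and a median of −0.23. In KA+NAP minus NAP none of the 30 was at 2-fold, with Dpysl3 at 0.56 and Dclk1 at 0.50. Mapre3, the neuronal end-binding protein EB3, was at 4045 and 2666, and Adnp, the protein that contains the NAP sequence, at 1386 and 1566. Of 22 neurofilament and axonal genes Sncg and beta-synuclein (Sncb, 2406 to 1139) were at least 2-fold lower, none was higher and the median was −0.39.

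Stress gene lists differed in how many members were higher. Heat shock genes had 5 of 32 (15.6%) at least 2-fold higher, none lower and a median of 0.22. Besides Hspb1 these were Hspb8 (162 to 868), its co-chaperone Bag3 (130 to 420), Hspa1a (189 to 496) and Hspa2 (390 to 794). All 5 were also at least 2-fold higher in KA+NAP minus NAP. In the p53 and Gadd45 list 7 of 16 (43.8%) were higher and 2 lower. Gadd45a, a DNA damage and stress gene, was at 47 and 72 without KA and at 463 and 407 with it. The cell cycle inhibitor Cdkn1a was at 121 and 303, Perp at 256 and 786, and Aen at 80 and 177. Lower were Sesn1 (557 to 244) and Bbc3, which encodes the pro-apoptotic PUMA (154 to 70). Perp and Bbc3 had the other sign in KA+NAP minus NAP, at −0.52 and 0.79. In the BCL2 and caspase list 4 of 22 were higher and none lower. They were Ripk3, a kinase of necroptosis (30 to 114), the caspase 8 inhibitor Cflar (232 to 584), and the survival genes Mcl1 (650 to 1518) and Bcl2a1 (55 to 130). Of 31 ER stress genes Atf4 alone was at 2-fold, with the co-chaperone Dnajc3 at 0.99. Of 29 antioxidant genes Hmox1, which degrades haem, was at 56 and 77 without KA and at 404 and 571 with it, and Prdx6, a peroxiredoxin, was lower (643 to 288). Cell cycle genes had 11 of 27 (40.7%) at least 2-fold higher and none lower, with a median of 0.91. Mcm5, of the replicative helicase, was at 37 and 150, Top2a at 31 and 107, and Cdk1 at 25 and 89. Of these 27 genes 10 were at or below the threshold with PBS, and against the NAP array 1 was at 2-fold.

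Neuronal marker lists lay below PBS by less than 2-fold in most members, while 4483 of all 9490 genes lay below PBS. No pan-neuronal marker among 26 reached 2-fold, 3 lay above 0 and the median was −0.40. Rbfox3 (NeuN) was at 1263 and 1284 without KA and at 710 and 902 with it, Elavl4, a neuronal RNA-binding protein, at 680 and 514 against 354 and 330, and Snap25, of the vesicle fusion machinery, at 9045 and 8295 against 6904 and 7031. In each of these 3 genes both KA arrays lay below both others. Of 20 CA3 pyramidal markers 18 lay below 0, 2 were at least 2-fold lower and 1 higher, and the median was −0.59. The kainate receptor subunit Grik4, which defines CA3 in hippocampus, was present on all arrays, at 407 with PBS, 325 with NAP, 365 with KA and 191 with KA+NAP. Cadps2, a priming factor of secretory vesicles, was at 666 and 268 and the ubiquitin ligase Rnf182 at 1198 and 549. Prss35 was the higher one, at 36 with PBS, 166 with NAP, 100 with KA and 19 with KA+NAP. The vesicular glutamate transporter Slc17a7 was at 817 and 828 without KA and at 549 and 506 with it.

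Markers of the neighbouring CA1 area were present as well and the order of the CA1 and CA3 medians depended on the array without KA. Dcn and Ccn3 are on both this list and that of meningeal markers, and Neurod6 is on the CA1 and the CA3 list. Elavl4 is on both the CA3 and the pan-neuronal list. None of 16 CA1 markers was above 0 in KA minus PBS, 8 (50%) were at least 2-fold lower and the median was −0.99. Mpped1 was at 1448 with PBS, 889 with NAP, 334 with KA and 1159 with KA+NAP. The transcription factor gene Pou3f1 was at 376, 179, 84 and 450 on those arrays, and Fibcd1, an acetyl-binding receptor, at 368, 86, 72 and 226. Ccn3, a secreted matricellular protein, was at 330 and 459 without KA and at 50 and 116 with it. The summed CA1 intensity was 16222 with PBS, 9511 with KA, 12617 with KA+NAP and 12606 with NAP. Against the NAP array the median was −0.39 for CA1 and −0.54 for CA3 markers, and in KA+NAP minus NAP it was 0.20 for CA1 and −0.69 for CA3. How much CA1 tissue each sample held was not tested. None of 12 dentate granule cell markers was at 2-fold (median −0.28), and their transcription factor Prox1 was at 932 and 753. In NAP minus PBS all 12 lay above 0 (median 0.31), and in KA+NAP minus NAP all 12 lay below 0 (−0.66). Against the NAP array 2 were at least 2-fold lower (−0.43). Their summed intensity was 8592 with PBS, 8647 with KA, 6686 with KA+NAP and 11051 with NAP. The dentate content of each sample was not tested. Of 16 interneuron markers 4 were higher (Npy, Tac1, the corticotropin-releasing hormone binder Crhbp at 1.62 and the GABA-synthesising enzyme Gad2 at 1.15) and 1 lower (the calcium buffer Pvalb, 426 to 196). Their median was −0.06. Gad1, the other GABA-synthesising enzyme, was at 3714 with PBS and 3661 with KA (−0.02). Gad2 was dimmer, at 74 and 176, and at 0.49 in KA+NAP minus NAP.

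Genes of glutamate and GABA receptors were below PBS in most members, and few reached 2-fold. All 6 measured kainate receptor genes lay below 0, from Grik4 at −0.15 to the auxiliary subunit Neto1 at −0.79 (304 to 172). Against the NAP array 2 of the 6 lay above 0, Grik4 among them at 0.16, and the median was −0.14. In NAP minus PBS the median of these genes was −0.35, against −0.23 in KA minus PBS. Of 12 AMPA and NMDA receptor genes 11 lay below 0, and their median was −0.50. The AMPA receptor auxiliary subunit Cnih2 was the 1 at 2-fold (1497 to 597). Gria2, the subunit that makes AMPA receptors impermeable to calcium, was at 5303 with PBS and 2956 with KA (−0.84). The group II metabotropic receptors Grm2 (126 to 57) and Grm3 (556 to 280) differed by −1.02 and −0.96. No GABA receptor gene of 10 was at 2-fold. Gabra5, of extrasynaptic inhibition in hippocampus, was at 2982 and 1578 (−0.91), Gabbr1 at −0.88, and Gabrd at −0.86, while Gabra2 was at 0.63. In the monoamine and acetylcholine receptor list Htr5b and the alpha adrenergic receptor Adra1d (502 to 129) were the 2 of 13 at least 2-fold lower, and none was higher.

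Ion channel and synapse lists also had most members below PBS, where 4483 of all 9490 genes lay. The median of all genes above 1000 with PBS was −0.10. Of 26 potassium channel genes Kcnip2 (932 to 350) and Kcnab2 (2215 to 1010), which are auxiliary subunits, were at least 2-fold lower and none was higher. Of 19 sodium, calcium and HCN channel genes 18 lay below 0 and the median was −0.55. The sodium channel beta subunits Scn3b (5172 to 2467) and Scn4b (607 to 285) were the 2 at 2-fold. Synaptic vesicle genes had a median of −0.34, with Cadps2 lower and the synaptotagmin Syt12 higher (82 to 221) among 38, and the release protein Vamp2 was at 1947 and 1021. Postsynaptic scaffold genes had a median of −0.38 and none of 24 at 2-fold, led by Ppp1r9b (spinophilin of dendritic spines) at −0.90. In the CaM kinase and calcineurin list 1 of 23 was higher, Camk2d (316 to 755), and 1 lower, the kinase inhibitor Camk2n1 (368 to 153). The median there was −0.51. Of 20 ion pump and transporter genes Fxyd5 and Slc12a4 were at least 2-fold higher and Fxyd7, a regulator of the neuronal sodium pump, lower (387 to 151). Axon guidance genes had 2 of 32 higher (Efna5 at 1.43, Sema6a at 1.34) and 3 lower (the ephrin Efnb3 at −1.37 and the plexins Plxnb1 at −1.26 and Plxnc1 at −1.06). In the cAMP list Pde1a was higher (68 to 155) and the PACAP receptor Adcyap1r1 lower (795 to 346) among 26. That list had 12 members above and 14 below 0, with a median of −0.04 against 0.02 for all genes.

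The PAR bZIP factors, clock-controlled activators, and their repressor stood on opposite sides. Hlf was at 699 with PBS, 664 with NAP, 94 with KA and 184 with KA+NAP. Dbp was at 311 and 335 without KA and at 102 and 164 with it, and Tef at 551 and 514 against 232 and 280. Nfil3, which represses at the same DNA element, was at 53 and 67 against 169 and 143. Each of the 4 genes had both KA arrays on one side of both others. Among the other 20 genes of the clock list Bhlhe40 (95 to 218) and Bhlhe41 (1336 to 2864) were at least 2-fold higher. The core clock genes Bmal1 (−0.03) and Clock (0.59) were not at 2-fold. Detoxification enzymes had none of 31 at 2-fold higher, 3 lower and a median of −0.40. Ephx2, the soluble epoxide hydrolase, was at 189 and 275 without KA and at 22 and 42 with it. Sult1a1, a sulphotransferase, was at 272 and 216 against 41 and 46, and Nat8f5 at 110 and 120 against 14 and 12. The D-box TTANGTAA, at which PAR bZIP factors bind, was in 1.02% of the 7961 promoter windows in 1.56% of those of the higher genes (6 of 384) and in 1.74% of those of the lower genes (3 of 172). It was in 2.02% of all 27457 windows.

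Lipid handling genes had 4 of 26 at least 2-fold higher, 1 lower and a median of −0.11. Plin2, the coat of lipid droplets, was at 75 and 106 without KA and at 569 and 673 with it. Ch25h, which makes 25-hydroxycholesterol, was at 56 and 353 with PBS and KA, and Apod at 1111 and 2577. Abca1, the cholesterol exporter, was at 110 with PBS, 627 with KA, 629 with NAP and 550 with KA+NAP, so the PBS array alone was low. Its other two probe sets past the filter were at 94 and 91 and at 74 and 68 with PBS and KA, so they did not share the difference. Apoc1 was lower (395 to 97). Of 23 cholesterol synthesis genes none was at 2-fold and the median was 0.01. In glycolysis the glucose transporter Slc2a1 (441 to 996) and the regulator Pfkfb3 (272 to 556) were higher and Aldoc lower, among 26. Housekeeping complexes differed little. Respiratory chain genes had a median of −0.12 with 12 of 39 above 0, proteasome subunits 0.25 with 26 of 30 above 0, and ribosomal protein genes 0.24 with 24 of 27 above 0. None of the genes of these 3 complexes was at 2-fold. The 15 reference genes lay between −0.20 and 0.49.

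Oligodendrocyte genes did not differ at 2-fold in any of 21, with a median of 0.04 and myelin basic protein (Mbp) at 8188 and 6973. Endothelial and barrier genes had 5 of 26 (19.2%) at least 2-fold higher and 1 lower, with a median of 0.15. Over all 9490 genes 4.91% were higher. Angptl4 (97 to 404), the VEGF receptor Kdr (78 to 256), Angpt2 (30 to 101), the leukocyte adhesion molecule Icam1 (45 to 116) and Slc2a1 were higher, and the efflux pump Abcg2 lower (137 to 63). The endothelial claudin Cldn5 was at 577 and 420. Against the NAP array 3 of the 26 endothelial and barrier genes were at least 2-fold higher and none lower. Their median there was −0.34, with 17 below 0. In NAP minus PBS 22 of the 26 lay above 0 and the median was 0.31. Meningeal and fibroblast markers had a median of −0.02 against PBS and −1.32 against NAP. Crabp2, a retinoic acid binder, was at 33 with PBS and 282 with KA, and Mgp at 256 and 714. The 4 choroid plexus and ependymal markers lay between 0.04 and 0.35, with Ttr at 354 and 453. In the chromatin list 2 of 34 were higher, the DNA methyltransferase Dnmt3a (111 to 273) and the Polycomb enzyme Ezh2 (48 to 107).

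**Figure D4:**
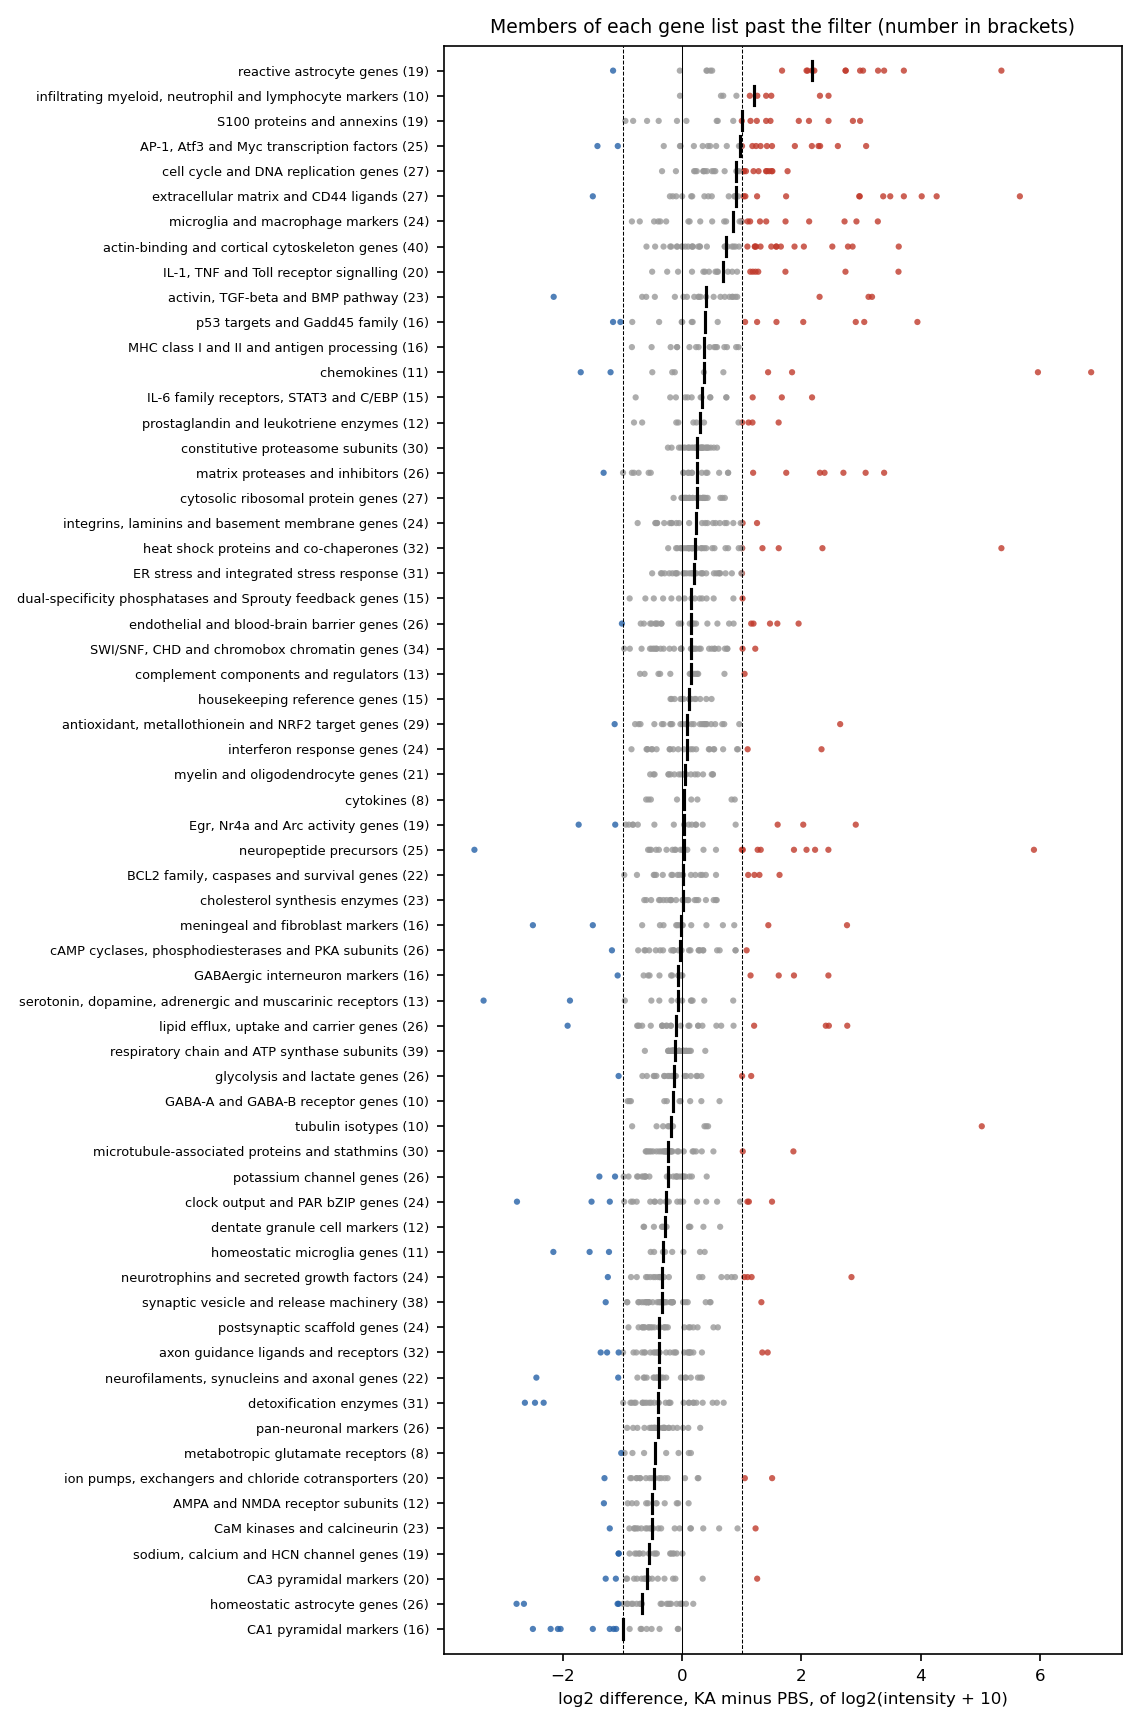
Log2 difference KA minus PBS for each member past the filter of the gene lists with 8 or more such members, sorted by the list's median (black tick); red and blue dots are at least 2-fold higher and lower, dashed lines mark 2-fold, and a gene can be on several lists. Medians run from −0.99 for CA1 pyramidal markers to 2.18 for reactive astrocyte genes, with no red or blue dot among proteasome and ribosomal genes.

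The KA+NAP and NAP arrays give the same difference with the peptide present and share no array with KA and PBS. Of the 466 genes at least 2-fold higher than PBS, 297 (63.7%) were also at least 2-fold higher there, and these were 55.3% of the 537 higher there. Of the 227 lower genes 84 (37%) were also at least 2-fold lower there, 36.7% of the 229 lower there. For the 9490 genes as a whole, the 2-fold shares in KA+NAP minus NAP were 5.66% upward and 2.41% downward, with 4961 above 0 and 4488 below. The filter used the mean of all 4 arrays, so the genes were not chosen independently of KA+NAP and NAP. Of the 466 higher genes, 168 were at or below its threshold with PBS and passed through the other arrays, which include KA+NAP. Shares in KA+NAP minus NAP were larger among the most extreme genes. Of the 28 genes at least 8-fold higher than PBS, 28 lay above 0 there and 25 were at least 2-fold higher. Of the 23 genes at least 4-fold lower, 18 lay below 0 and 16 were at least 2-fold lower. Where more than 1 probe set of a gene had passed, 67 genes were higher, and 62 of these had every probe set above 0 and 38 had every one at 2-fold. Of 44 such lower genes 42 had every probe set below 0 and 18 every one at 2-fold.

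**Figure D5:**
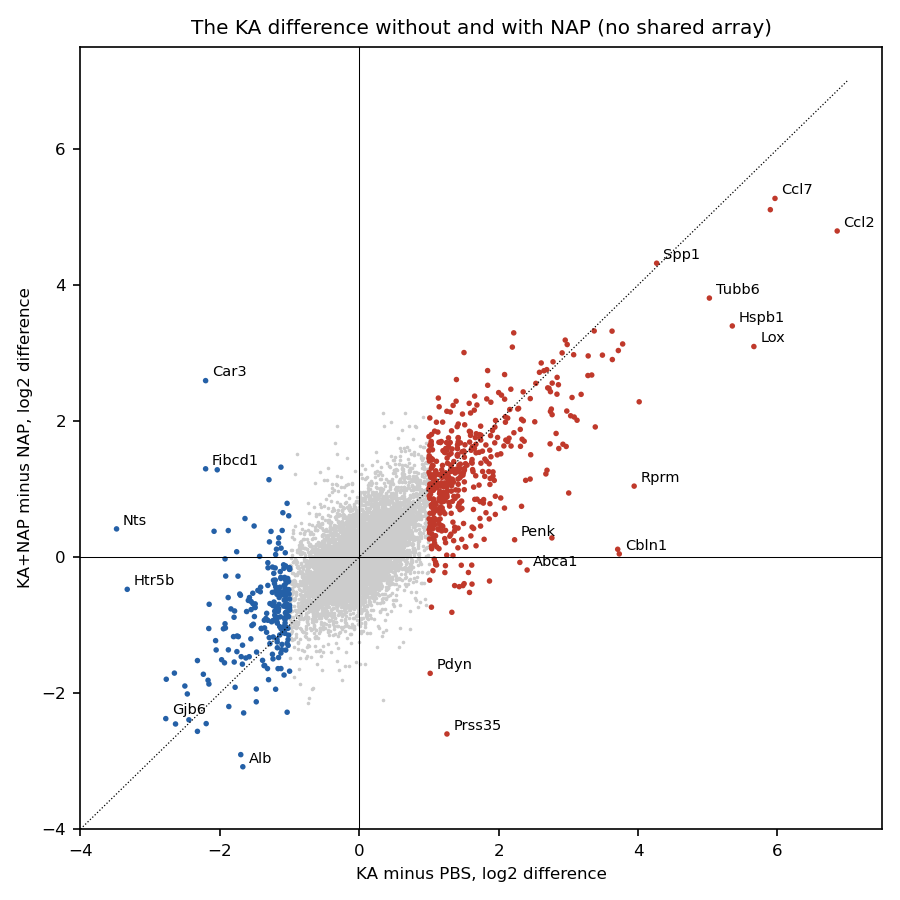
Log2 difference KA minus PBS (horizontal) against KA+NAP minus NAP (vertical) for the 9490 genes, with the dotted line of equality; red and blue genes are at least 2-fold higher and lower in KA minus PBS. Ccl2, Ccl7 and Hspb1 are high in both, Gjb6 is low in both, Cbln1, Penk and Abca1 lie near 0 on the vertical axis, and Car3 and Prss35 lie on opposite sides of 0.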

How the data were processed

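RNA from the hippocampus of 4 groups of rats, 1 array each, was compared as KA minus PBS. Per the labels' protocols, 500 ng of total RNA was amplified in 2 cycles and hybridised to an Affymetrix array, all RNA having been extracted at the same time. The deposited values are linear intensities computed with MAS5, per the submitters' processing notes. The MAS5 version was not given in the sources used here. All 4 arrays had a trimmed mean of 250 (2% taken off either tail), which shows that the authors had scaled them alike. Of 31099 probe sets, 20832 had 1 gene symbol in the platform annotation, 436 had several and were left unnamed, and 9780 were neither listed nor controls. Of 57 control probe sets 6 had a symbol and count among the named ones, and Gapdh was read from one of them. Symbols were updated through 20764 Entrez identifiers present in the GRCr8 gene table. The log2 values and differences were computed here in Python 3.11.15 with pandas 2.3.3, after the calculation had been tested on simulated data. The filter was the median of the mean intensities of all probe sets but controls.

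The gene lists (66, with 1290 distinct members past the filter of 1723 on the array) and the comparison were chosen with earlier results of these data known. Lists are described by counts and medians beside those of all genes. Genes named are the 25 highest and lowest, the 4 largest differences of each list, all members at 2-fold where a list has 5 or fewer of them, defining markers, and genes at 2-fold in opposite directions in KA minus PBS and KA+NAP minus NAP. The others named were chosen after their values were seen. The promoter table gave 1 window per gene, the first listed where there were several. Other settings were pseudocounts 1 and 32, other filters, all probe sets, quantile normalization, centring, size rules of 1.5-fold and 3-fold, and the NAP array or the mean of PBS and NAP in place of PBS.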

Additional observations from a re-analysis of the deposited data

Results flagged for a closer look

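For 7 genes KA minus PBS and KA+NAP minus NAP were at least 2-fold in opposite directions, each from single arrays, and the difference between the effects was not tested. Car3, a carbonic anhydrase of fat and muscle, was at −2.20 in KA minus PBS and 2.59 in KA+NAP minus NAP, with intensities of 617, 126, 455 and 67 on the PBS, KA, KA+NAP and NAP arrays. The CA1 markers Fibcd1 (−2.20 and 1.30) and Pou3f1 (−2.04 and 1.28) had the same order of signs, as did Nkain3 (−1.30 and 1.14) and Pts, an enzyme of tetrahydrobiopterin synthesis (−1.12 and 1.32). Pdyn, the dynorphin precursor, was at 1.02 and −1.71, and the CA3 marker Prss35 at 1.26 and −2.60. In the 5 genes that were lower with KA than with PBS, the PBS array itself lay at least 2-fold above the NAP array, and in Pdyn and Prss35 it lay below it.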

How the results depend on the processing

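The count of genes at least 2-fold higher was 466. It was 755 with no filter on low values (14218 genes), 192 with the filter at the 75th percentile (5386 genes), 302 against the NAP array, 1176 at 1.5-fold and 171 at 3-fold. The count of lower genes was 227, and it was 447, 104, 907 and 57 with no filter, the 75th percentile, 1.5-fold and 3-fold. All other settings kept both counts within 1.5 times. Higher genes were 67.2% of those at 2-fold and 55.7% against the NAP array. Of 174 named genes at 2-fold, all kept their sign under the other settings that gave them a value, except 6 when the NAP array replaced PBS: Abca1 at −0.0045, C5ar1 at −0.056, Car3 at 0.82, Hbb at −2.88, Prss35 at −0.68 and Pts at 0.35. In that setting 120 of the 174 remained at 2-fold with the same sign, and the median of 15 of 65 lists moved by more than 0.24, the spread of NAP minus PBS over genes. The filter at the 75th percentile kept 83 of the 174 genes and moved 13 list medians by that much. The number of arrays, 1 per group, limits every value. No paired analysis was possible because each group has 1 array and the labels give no replicate numbers.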
